A study of Mus musculus with 568 samples.

Results

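The cells described here are 72 single germ cells from reconstituted ovaries with *Ddx4*, *Sycp3* and *Nanog* RNA below set limits. They were picked from the single-cell counts by a rule on measured values. A well of the XGFPintermediate or XGFPlow population was a member if it held reads of at least 4000 genes and at least 10000 reads, with at most 5% of reads from mitochondrial genes. It also had to express *Dazl*, a germ-line RNA-binding protein, above a set level (ln of 1 plus reads per 10000, above 1). It had to lie below 150 reads per 1000000 reads (rpm) of *Ddx4*, the germ-line RNA helicase also called Vasa, below 400 rpm of *Sycp3*, a lateral element protein of the meiotic chromosome axis, and below 200 rpm of *Nanog*, a pluripotency factor. Of the 280 wells of both populations, 72 met the rule, 33 XGFPintermediate and 39 XGFPlow, out of 552 wells in the whole series. They are called unadvanced cells below. The name stands for these limits only and does not mean that late germ-line or meiotic genes were off.

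The study made female mouse germ cells in culture from hybrid embryonic stem cells (ESCs), with 1 X chromosome from 129S1/SvImJ (called mus) and 1 from CAST/EiJ (called cas), and asked how X-chromosome silencing and its reversal go along with the way to meiosis. All cells came from 1 reporter line, different clones of which were used for the bulk libraries. It carries GFP on the mus X (XGFP) and tdTomato on the cas X (XTomato), a truncated *Tsix* on the mus X, and doxycycline-driven *Prdm14*, *Blimp1* (*Prdm1*) and *Tfap2c*, which were induced with doxycycline for the 5 days of primordial germ cell-like cell (PGCLC) culture. ESCs became epiblast-like cells (EpiLCs) and then PGCLCs, and XGFP- PGCLCs of day 5 that carried CD61 and SSEA1 were mixed with 75000 somatic cells of E13.5 female gonads and mesonephros and kept as reconstituted ovaries for 6 days. XTomato+ cells were then sorted 1 per well by GFP into XGFPhigh, XGFPintermediate and XGFPlow, and bulk RNA was made from ESCs, EpiLCs and XGFP+ and XGFP- PGCLCs, 4 libraries each. The 3 sorted populations share the starting PGCLCs, the line, the induced factors and the aggregation, and differ by the gate on GFP. Wells of a 4th population, grown from PGCLCs that were XGFP+ at day 5 and called constitutive, and wells with ESCs are used only for the X-linked ratio.

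No label ties a well to an animal or a culture, so each sorted population counts as 1 sample. No test between groups of wells was made, and the values below describe these wells. They are given in rpm in a well, the level of a gene is the mean rpm over wells, and a difference is the log2 ratio of 2 levels after adding 1 rpm to each. Intervals on shares of wells are exact Clopper-Pearson 95% intervals and cover counting error only. Wells fall into 5 index sets (a flow-cell lane and a block of 96 index numbers) that hold all 3 populations, and the range of a difference over these sets is given as its spread. No 2 wells share a lane and an index number.

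The unadvanced wells held 131780 to 1101309 reads with a median of 644883, and 4257 to 9257 genes with a median of 7473. They were compared with the 83 XGFPintermediate and 52 XGFPlow wells that passed the quality and *Dazl* limits but lay outside the other limits (advanced wells). They were also compared with the XGFPhigh wells that passed the quality and *Dazl* limits, of which 63 met all limits and 55 did not. The median number of genes was 7263 in advanced and 8054.5 in XGFPhigh wells, at medians of 637642 and 635684 reads. The unadvanced wells made up 34.8% of the wells of both populations that passed quality and *Dazl*, 28.4% of the XGFPintermediate and 42.9% of the XGFPlow wells. This share ran from 21.7% to 60% between index sets. A further 42 wells of these populations had little *Dazl* and 31 failed the quality limits.

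Germ cells arriving in the embryonic ovary are still close to pluripotent cells. They then express *Dazl* and, exposed to retinoic acid and BMP signals from the gonad, switch on *Stra8* and the genes of the meiotic chromosome axis, while pluripotency genes decline. Over the same period the silenced X chromosome is reactivated, and *Xist*, the RNA that coats an inactive X, is lost. Retinoic acid acts through nuclear receptors that bind direct repeats in DNA, and cells exposed to it raise *Rarb*, a retinoic acid receptor gene, and *Cyp26a1*, which encodes the enzyme that degrades retinoic acid.

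The largest difference of a retinoic acid gene between unadvanced and XGFPhigh cells was that of *Cyp26a1*, so the promoters of this pathway are shown first. A search of RefSeq promoters (GRCm38.p6, the 250 bases before each start) for 2 copies of GTTCA in the same orientation with 6 bases between them, on both strands, a direct repeat of the kind these receptors bind, found it in 22 of 32851 promoters, or 0.067%, which belong to 21 genes. Of 10 genes, the retinoic acid list and *Stra8*, 7 had a promoter in this table and 2 of them held the repeat, *Rarb* and *Cyp26a1*. The repeat was chosen for this pathway, so its share among these genes is no test of enrichment. The *Rarb* promoter lies at chr14:16575477-16575726 on the minus strand, with the repeat 52 to 37 bases before the start. The *Cyp26a1* promoter lies at chr19:37697558-37697807 on the plus strand, with the repeat on the opposite strand 32 to 17 bases before the start. Capitals mark the repeat.
Rarb: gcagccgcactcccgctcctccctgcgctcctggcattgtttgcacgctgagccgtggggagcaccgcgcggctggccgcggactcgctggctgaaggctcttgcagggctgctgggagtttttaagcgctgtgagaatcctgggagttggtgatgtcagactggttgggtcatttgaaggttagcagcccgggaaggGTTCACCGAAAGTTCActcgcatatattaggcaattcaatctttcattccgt
Cyp26a1: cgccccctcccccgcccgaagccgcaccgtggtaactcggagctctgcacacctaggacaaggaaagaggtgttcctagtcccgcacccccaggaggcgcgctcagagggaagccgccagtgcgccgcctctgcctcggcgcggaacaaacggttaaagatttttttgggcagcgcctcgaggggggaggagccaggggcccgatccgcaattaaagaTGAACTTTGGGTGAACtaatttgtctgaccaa
The letters describe these windows and say nothing about whether a receptor bound there.

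5 genes had been put forward as marks of these cells (the label genes): *Gstm3*, a glutathione S-transferase (chromosome 3, 107963696 to 107969283 on mm10), *Wnt3*, a WNT ligand, *Dkk4*, a secreted WNT inhibitor, *Alox15*, a lipoxygenase, and *Dppa3*, also called Stella, an early germ cell protein. *Dppa3* (chromosome 6, 122626410 to 122630272) was read in 95.8% of the unadvanced wells and the other 4 in a minority or a bare majority of them. Since the genes were chosen in these cells, their levels are a description.

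*Gstm3* ran from 0 to 480 rpm over the 72 unadvanced wells with a median of 4.29. It was read in 54.2% of them (42.0 to 65.98), against 28.9% of the advanced and 41.5% of the XGFPhigh wells. In the XGFPhigh wells within the same limits the share was 50.8% and the level 25.5 rpm. Thinned to 50000 reads per well, the first 3 shares were 44.4%, 23.0% and 29.7%. The wells overlapped over their whole low range, and the highest values were in unadvanced wells. Its level was 69.7 rpm in unadvanced, 20.2 in advanced and 18.2 in XGFPhigh wells. The difference of 1.88 from XGFPhigh ran from 1.46 to 2.37 over the index sets, and that of 1.74 from advanced wells from 1.17 to 3.34.

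*Dppa3* had a lowest value of 0, a median of 1387 and a highest value of 6980 rpm in unadvanced wells. The median was 114.3 in advanced and 1070 in XGFPhigh wells. The level was therefore higher than in advanced wells, by 1.65 on the log2 scale (0.66 to 2.58 over sets), and close to XGFPhigh, with a difference of 0.48 (0.21 to 0.68). Against the XGFPhigh wells that met the same limits, it was 0.03.

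*Wnt3*, *Dkk4* and *Alox15* had medians of 0 in all 3 groups. *Wnt3* was read in 33.3% of the unadvanced wells, 16.3% of the advanced and 16.9% of the XGFPhigh wells, with levels of 15.7, 5.02 and 4.16 rpm. In the wells with little *Dazl* its level was 15.6 rpm. For *Dkk4* the shares were 23.6%, 11.1% and 9.32% and the levels 10.4, 3.64 and 2.44 rpm. *Alox15* was read in 22.2%, 12.6% and 2.54% of the wells, with levels of 8.93, 5.76 and 1.47 rpm. The differences from XGFPhigh were 1.69 for *Wnt3*, 1.73 for *Dkk4* and 2.01 for *Alox15*, but that of *Wnt3* ran from -0.67 to 4.11 over index sets. Thinned to 50000 reads, the shares in unadvanced wells were 22.2%, 15.3% and 18.1%. Of *Gstm3*, *Wnt3*, *Dkk4* and *Alox15*, 23 of the 72 unadvanced wells had a read of none, 20 of 1, 13 of 2, 14 of 3 and 2 of all 4. None was read in 59.3% of the advanced and 48.3% of the XGFPhigh wells, beside 31.9% of the unadvanced wells. These 4 genes were thus read in more of the unadvanced wells but did not mark each of them.

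**Figure D1:**
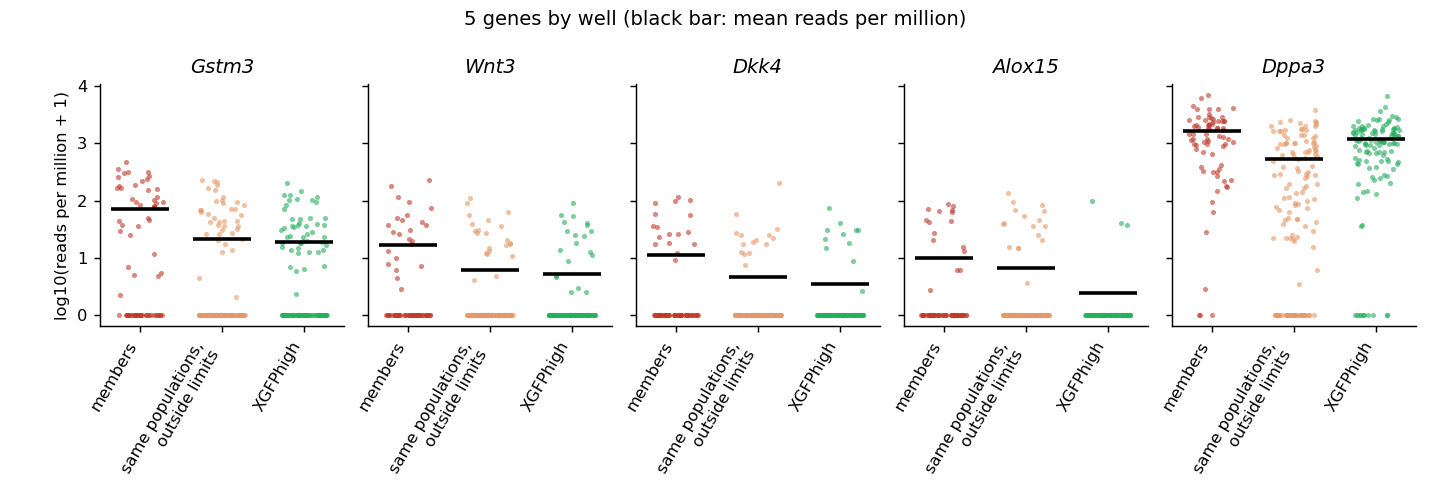
Log10 of rpm plus 1 (vertical axis) of *Gstm3*, *Wnt3*, *Dkk4*, *Alox15* and *Dppa3* in 72 unadvanced wells (called members), the wells of the same populations outside the limits and the XGFPhigh wells; each point is a well and each black bar the mean level. *Dppa3* is read in nearly all unadvanced wells, while wells at 0 are frequent for the other 4 genes, and the unadvanced bar is the highest for each of the 5 genes.

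The limits cut through a continuous range. The highest *Ddx4* value of an unadvanced well was 148.9 rpm and the lowest of a well left out by it 151.04. For *Sycp3* these values were 300.8 and 418, and for *Nanog* 161.9 and 212.5. *Ddx4* alone kept out 88 of the advanced wells, *Sycp3* alone 1 and *Nanog* alone 3. *Dazl* was far from its limit, with 669 to 4376 rpm in unadvanced wells, a lowest value of 2.04 on the ln scale of the rule and 0.962 in the nearest well with little *Dazl*. Halving the 3 upper limits left 32 cells and doubling them gave 125.

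Of the other cell types that the aggregates hold, few signs were seen. The summed level of 17 gonadal somatic genes was 0 in 48 of the 72 unadvanced wells, with a median of 0 and a highest value of 163.9 rpm, and 9 of the genes, among them *Gata4*, *Nr5a1*, *Lhx9* and *Emx2*, had no read in any unadvanced well. The highest value was 636 rpm in advanced and 105.1 in XGFPhigh wells. In wells with little *Dazl* the median was 48.8 and the highest value 36894. For mesonephric, endothelial and blood genes, 64 of 72 unadvanced wells were at 0 and the highest value was 26.2 rpm.

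The comparison with XGFPhigh asked how the unadvanced cells differ from germ cells of the same aggregates that carry the active GFP allele. Among 6994 genes with a level of 20 rpm or more in either group, 4.22% were 2-fold or more higher in unadvanced cells and 404 genes (5.78%) 2-fold or more lower. Of the lower genes, 350 were read in at least 25% of XGFPhigh wells and kept their sign in each of the 5 index sets. The sign of these 350 also held in XGFPintermediate and XGFPlow members apart. Lower genes outside this count may have been too sparse and need not have changed sign. The genes named are the 10 leading genes on each side that met these conditions, with the read share taken in the higher group. The counts and the gene choice used these wells, so they describe them.

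The higher genes began with *Arg1*, arginase (chromosome 10, 24915221 to 24927484). It ran from 0 to 292.6 rpm with a median of 20.6 in unadvanced wells, and from 0 to 39.5 with a median of 0 in XGFPhigh wells, at levels of 42.9 and 1.63. Arginase was read in 59.7% of the unadvanced, 44.4% of the advanced and 11.02% of the XGFPhigh wells. *Cyp26a1* (chromosome 19, 37697798 to 37701536) had 0, 14.01 and 3654 rpm as the lowest, median and highest unadvanced well, and 0, 0 and 503 in XGFPhigh wells. Reads were found in 51.4% and 22.03% of these wells. The difference was 3.73 and ran from 1.52 to 7.27 over index sets, so its size varied widely. The same direction in each set was a condition for naming the gene. Against advanced wells it was 1.20 (-0.29 to 2.01).

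Of the other higher genes, *Hesx1* and *Nfix* encode transcription factors, *Id2* an inhibitor of basic helix-loop-helix factors raised by BMP, *Egr1* an immediate early transcription factor, *Mfap2* a microfibril protein and *Ifi27l1* an interferon-inducible protein. *Ifi27l1* was read in 72.2% of the unadvanced and 13.6% of the XGFPhigh wells, and *Hesx1* in 51.4% and 21.2%. *Gm9112*, on the X chromosome, was read in 72.2% and 15.3%. *Tmem88* was at 0 in most wells of both groups, and its level of 25.9 rpm in unadvanced cells included 1 XGFPlow well at 862 rpm. *Egr1* is also a gene of the dissociation response list. The summed level of the 8 genes of that list had a median of 332.1 rpm in unadvanced and 247.4 in XGFPhigh wells, with means of 724 and 292.6 and highest wells of 6821 and 1411 rpm. Of its 3 genes measured, *Fos* and *Egr1* were 2-fold higher and 0 lower (median 2.35, and 2.33 against XGFPhigh wells within the limits). *Fos*, an immediate early transcription factor, had levels of 68.6 and 12.6 rpm, a difference of 2.35 (-0.16 to 4.29 over sets), and was at 0.05 in XGFPintermediate members alone. The part of this response in the *Egr1* difference was not tested.

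Most of the lower genes were read in few unadvanced wells. *Slc7a3*, a cationic amino acid transporter on the X (101079210 to 101086020), was read in 8 of 72 unadvanced wells, with a median of 0 and a highest well at 606 rpm. In XGFPhigh wells its median was 250 and it was read in 86.4%. *Bcat1*, the cytosolic branched-chain aminotransferase, had a median of 0 in unadvanced and 154.05 rpm in XGFPhigh wells, and was read in 13.9% and 87.3% of them. *Nr0b1*, the X-linked nuclear receptor DAX1 of the pluripotency network (86191764 to 86195947), was read in 11.1% and 62.7%. The groups overlapped at 0, which was frequent in both, but for *Bcat1* and *Slc7a3* the XGFPhigh medians lay far above most unadvanced wells.

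4 of the leading lower genes had no read in any of the 72 unadvanced wells, which allows a share of up to 4.99% of wells. They were *Serpina3m*, *Spic*, an ETS family factor, and the X-linked *Ube2dnl* and *Magea10*. A floor was set at 3 reads over the 46970390 reads of all unadvanced wells. In XGFPhigh wells, 47, 42, 62 and 37 of which had a read, pooled levels were 662, 632, 576 and 535 times this floor. These reads came from a part of the wells, so the ratios set no lower bound on the fold difference between the groups. *Serpina3m* and *Ube2dnl* belong to families with close copies, so counting may have split their reads. The remaining lower genes were *Gm364* and *Tktl1* on the X and *Upp1*, uridine phosphorylase. *Upp1* was read in 7 of 33 XGFPintermediate and 0 of 39 XGFPlow members and in 61.9% of XGFPhigh wells.

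The XGFPhigh wells within the same limits were taken apart as well. Against the 63 XGFPhigh wells within the limits, a comparison added after the data had been seen, 4.27% of 6907 genes were 2-fold or more higher and 4.27% lower. These wells are part of the XGFPhigh wells used to choose the 20 leading genes, so a kept direction is no separate check. The differences there ran from 2.51 for *Tmem88* to 4.35 for *Arg1* on the higher side. On the lower side they ran from -5.05 for *Serpina3m* to -2.47 for *Tktl1*.

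**Figure D2:**
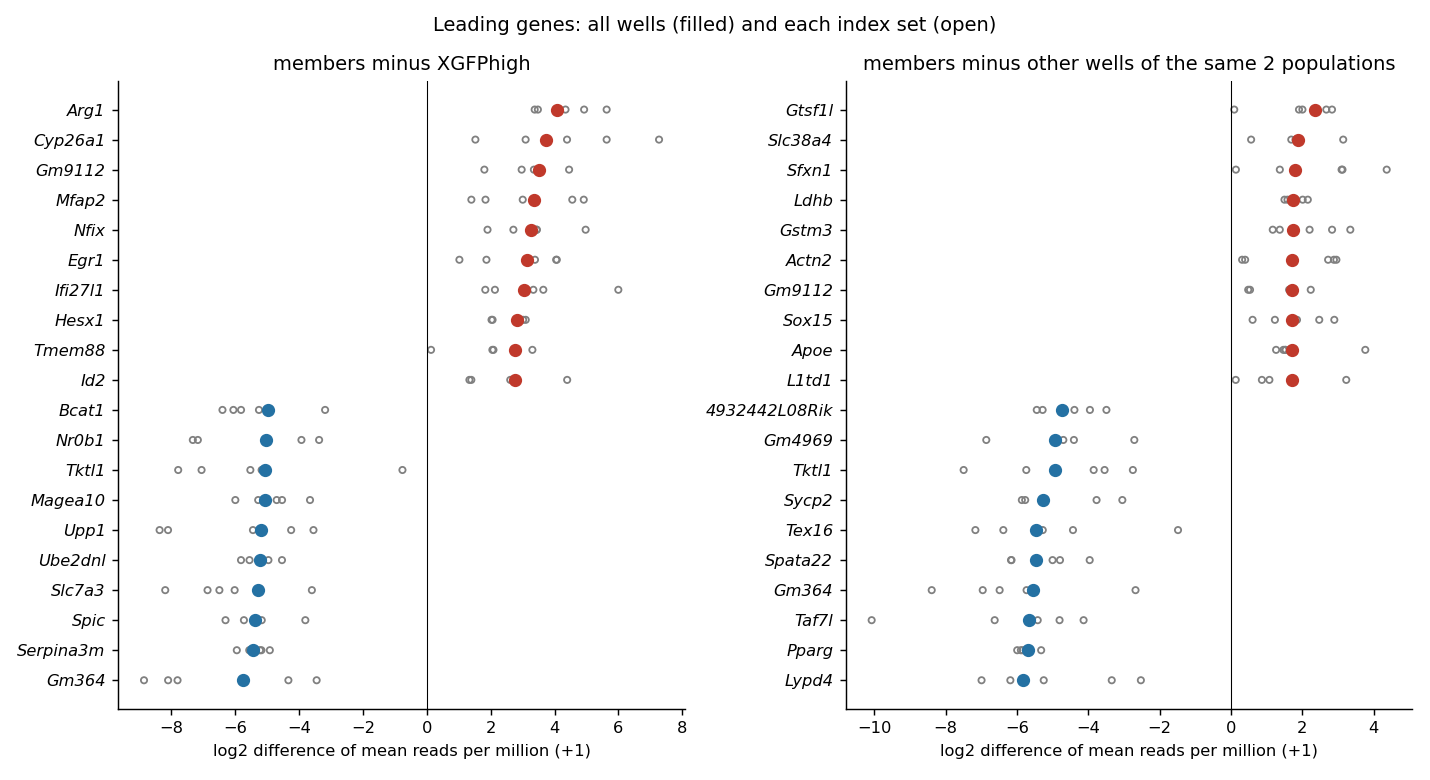
Log2 difference of mean rpm (plus 1) between the unadvanced wells and XGFPhigh wells (left) or advanced wells of the same populations (right) for the 10 leading genes on each side; filled points use all wells and open points each index set. The open points of a gene lie on 1 side of 0, as the choice of genes required, and spread widely, from 1.52 to 7.27 for *Cyp26a1* against XGFPhigh.

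Gene lists were described by counts of 2-fold differences and by their median, beside the median of 0.10 over all genes. Naive pluripotency genes were lower in unadvanced than in XGFPhigh cells, with 0 of 11 measured genes 2-fold higher, 7 lower and a median of -1.83. *Dppa5a*, an RNA-binding protein of pluripotent cells, had medians of 1669 and 6504 rpm and levels of 2318 and 7571. *Zfp42* (REX1) had levels of 208.8 and 921.6 rpm, *Klf2* of 56.5 and 203.9. *Nanog*, which the rule capped, had 27.3 and 201.3. Against XGFPhigh wells within the limits the list median was -1.46, with 6 of 9 genes 2-fold lower. *Dppa4* and *Esrrb* were not past 2-fold, at 0.36 and -0.86.

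Of 16 early germ cell genes, 0 were 2-fold higher and 2 lower, *Morc1* (30.6 against 155.3 rpm) and *Alpl* (217.7 against 444), with a median of -0.31. The most abundant members of the list, *Dppa3*, *Ifitm3*, *Ifitm1* and *Utf1*, differed from XGFPhigh by 0.48, 0.55, -0.52 and 0.84. *Kit*, the receptor of stem cell factor, was read in 87.5% of unadvanced and 86.4% of XGFPhigh wells.

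*Stra8* and *Rec8*, expressed at the start of meiosis, were higher in unadvanced than in XGFPhigh cells, while the meiotic list as a whole was not. *Stra8*, the gatekeeper of meiotic entry that retinoic acid induces, had a lowest value of 0, a median of 2220 and a highest of 7338 rpm in unadvanced wells. The median was 398 in XGFPhigh and 3044 in advanced wells. The difference from XGFPhigh was 1.44, from 0.52 to 2.49 over sets. *Rec8*, the meiotic cohesin subunit, had medians of 61.01, 5.30 and 84.7 rpm in unadvanced, XGFPhigh and advanced wells. Of the 17 meiotic genes measured, these 2 were 2-fold higher and 9 lower than in all XGFPhigh wells, with a list median of -1.24. Among the 9 were *Gm4969*, the gene of the STRA8 partner MEIOSIN, *Sycp1*, *Sycp2* and the rule gene *Sycp3*.

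That median depended on which XGFPhigh wells were taken, since 55 of them lay outside the limits that the unadvanced wells meet by the rule. Against XGFPhigh wells within the same limits, 6 of 13 meiotic genes were 2-fold higher (*Stra8*, *Rec8*, *Sycp3*, *Tex12*, *Smc1b*, *Stag3*) and 1 lower (*Tex15*), with a median of 0.83 beside 0.12 over all genes. *Smc1b*, a cohesin subunit of meiotic cells, had a level of 380 rpm in unadvanced and 280.7 in all XGFPhigh wells, and was 1.51 higher on the log2 scale in unadvanced wells than in XGFPhigh wells within the limits. The 16 late germ-line genes behaved likewise, with 3 higher and 6 lower and a median of -0.49 against all XGFPhigh wells, and 7 higher and 3 lower and a median of 0.35 within the limits. *Stk31*, a Tudor domain kinase, was higher in both comparisons, by 1.12 and 1.42, as was *Mov10l1*, the helicase of the piRNA pathway, by 1.36 and 2.66. *Tdrd12*, *Gtsf1* and *Rpl10l* were lower in both. *Ddx4* was among the 7 late germ-line genes higher within the limits. The rule capped *Ddx4* and *Sycp3* in both groups there, and the counts within the limits were not repeated without them.

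Among 8 retinoic acid genes, 3 were 2-fold higher and 1 lower than in XGFPhigh cells, with a list median of 0.37. Against XGFPhigh wells within the limits, 3 were higher and 2 lower, with *Crabp1* among the lower. The list median there was 0.008, beside 0.12 over all genes. *Rarb* ran from 0 to 282.2 rpm with a median of 16.5 in unadvanced wells and from 0 to 156.9 with a median of 0 in XGFPhigh wells, a difference of 1.36 (-0.16 to 2.55). *Dhrs3*, a retinal reductase, was read in 56.9% and 21.2% of wells, a difference of 2.39 (0.98 to 4.19). Against all XGFPhigh wells, *Stra6*, *Crabp2* and *Crabp1* were within 2-fold, at -0.02, 0.34 and -0.91. Of the 4 genes with the direct repeat that were measured here, *Rarb* and *Cyp26a1* were 2-fold higher. *Blvrb* was at 0.26, and *Dmd* was 2-fold lower, at -1.49. *Dhrs3*, whose RefSeq windows hold no match, was higher as well.

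The rest of the pathways around the label genes did not move as groups. Of 9 glutathione S-transferases, 2 were 2-fold higher (*Gstm3*, *Mgst3*) and 3 lower. The 3 lower ones were *Gstm1* (130 against 313.6 rpm), *Gsta3* (1.52 against 27.96) and *Gsta4* (105 against 396), with a list median of -0.45. Of 13 genes of glutathione supply and NRF2, 0 were higher and 2 lower, the quinone reductase *Nqo1* and the haem oxygenase *Hmox1*. Close copies within the *Gstm* family may have shared reads.

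WNT genes were mostly too low to compare. None of 14 WNT ligands in the table and none of 12 lipoxygenase or cyclooxygenase genes reached 20 rpm in either group. Of 4 WNT receptor and coreceptor genes (*Ror2*, *Fzd3*, *Lrp6*, *Lgr4*) and 2 inhibitors, 0 were past 2-fold. Among 5 WNT target genes, *Lef1* was higher, at 23.4 against 7.95 rpm, while *Tnfrsf19*, the most abundant, was at 64.9 and 65.4 rpm.

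*Dnmt3l*, the cofactor of de novo DNA methylation, was read in 5 of 72 unadvanced wells and in 72.03% of XGFPhigh wells, at levels of 5.92 and 135.9 rpm. Of the 7 DNA methylation genes measured it was the only one past 2-fold, and *Dnmt1*, *Uhrf1* and *Tet1* differed by 0.44, 0.27 and 0.27. Of 16 S phase genes, 0 were higher and 2 lower (*Ccne2*, *Gins2*), and of 16 genes of G2 and mitosis none was past 2-fold. *Ccne2* was 0.30 higher, not lower, against XGFPhigh wells within the limits. Of 5 ATF4 stress genes 0 were higher and 2 lower (*Chac1*, *Psat1*), and of 8 p53 genes 0 were higher and 2 lower (*Phlda3*, *Pmaip1*). Of 4 BMP response genes *Id2* was higher, and of 5 epiblast and mesoderm genes *Hoxb1* and *Lefty1* were lower.

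The comparison with the advanced wells asked what else differs between cells of the same GFP gate on both sides of the limits. Of 7191 genes, 2.04% were 2-fold or more higher in unadvanced wells and 561 genes (7.8%) lower. Without index set 3-3 the higher genes were 3.40% of the genes tested. The rule used *Ddx4*, *Sycp3* and *Nanog*, and genes that go along with *Ddx4* and *Sycp3* had to be lower. Genes that fall as *Ddx4* and *Sycp3* rise had to be higher, so the counts on both sides describe the split.

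The lower side held meiotic and germ-line genes. 21 of 24 meiotic genes were 2-fold lower and 0 higher (median -2.23), and 10 of 17 late germ-line genes lower and 0 higher (median -1.47), beside a median of -0.08 over all genes. These counts hold *Sycp3* and *Ddx4*, on which the rule split the wells. Without the rule genes they were 20 of 23 (median -2.21) and 9 of 15 (median -1.47). *Sycp2*, the lateral element partner of *Sycp3*, had a median of 0 and a highest value of 121.03 rpm in unadvanced wells, against a median of 68.9 and a highest value of 4824 in advanced wells. *Taf7l*, a germ-line TFIID subunit on the X, had levels of 11.97 and 653 rpm. *Lypd4* had no read in 72 unadvanced wells and reads in 41 advanced wells, at least 833-fold lower against the floor. *Pparg*, *Spata22* (a meiotic recombination protein) and *4932442L08Rik* had reads in 1 unadvanced well each and *Tex16* in 2. *Gm364*, *Tktl1* and *Gm4969* completed the 10.

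*Stra8*, *Rec8* and *Syce2* were the 3 meiotic genes within 2-fold, at -0.50, -0.11 and -0.52. *Stra8* was read in 98.6% of the unadvanced and 97.8% of the advanced wells. The unadvanced cells therefore had *Dazl*, *Stra8* and *Rec8* at levels within 2-fold of the advanced wells, with *Dazl* at 2427 against 3637 rpm. Other meiotic genes were lower but still read, with *Smc1b* at 380 against 1353 rpm and *Syce1*, a central element protein of the synaptonemal complex, at 160.97 against 465.

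Higher than in advanced wells were genes of early germ cells. 8 of 16 were 2-fold higher and 0 lower (median 1.07), beside 2.04% of all genes higher and 7.8% lower. They were *Tfap2c*, *Dppa3*, *Nanos3*, *Dnd1*, *Ifitm1*, *Ifitm3*, *Sox2* and *Utf1*. The rule itself favours genes that fall as *Ddx4* and *Sycp3* rise, so these counts are no separate result. *Ifitm3*, an interferon-inducible membrane protein of early germ cells, ran from 17.8 to 7909 rpm with a median of 1008, against 0 to 2636 with a median of 191.7. *Tfap2c*, a specification factor, was read in 69.4% and 26.7% of wells, and the counts do not tell its own RNA from that of the inducible transgene. *Tet1*, a 5-methylcytosine dioxygenase, was read in 81.9% and 46.7%, at levels of 88.1 and 26.8 rpm. The naive pluripotency genes *Klf2*, *Dppa4* and *Dppa5a* were also past 2-fold, 3 of 8 with 0 lower. Of 8 glutathione S-transferases, *Gstm3* and *Gstm1* were higher and 0 lower. *Cdkn1a*, the cell cycle inhibitor p21, was the 1 higher gene of 8 p53 genes, at 112.7 and 52.4 rpm.

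The 10 leading higher genes were *Gtsf1l*, *Slc38a4*, *Sfxn1*, *Ldhb*, *Gstm3*, *Actn2*, *Gm9112*, *Sox15*, *Apoe* and *L1td1*. *Ldhb*, a lactate dehydrogenase subunit, had medians of 283.4 rpm in unadvanced, 75.3 in advanced and 222.5 in XGFPhigh wells, with a difference from advanced wells of 1.75 (1.50 to 2.15). *Apoe*, apolipoprotein E, had medians of 118.3, 17.8 and 592 rpm. *Slc38a4*, an amino acid transporter, had medians of 58.99, 0 and 144.03 rpm. *L1td1*, an RNA-binding protein of pluripotent cells, had medians of 23.3, 0 and 148.3 rpm. For *Apoe*, *Slc38a4*, *Sfxn1* and *L1td1* the unadvanced level thus lay between those of the other groups. For *Gm9112*, *Gstm3*, *Ldhb* and *Sox15* the unadvanced level was the highest of the 3 groups, and above XGFPhigh in each of the 5 index sets. *Gtsf1l* had levels of 20.9 rpm in unadvanced and 18.4 in XGFPhigh wells, but was higher in unadvanced wells in set 2-3 alone (2.25) and lower in the other 4 (-1.39 to -0.14).

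**Figure D3:**
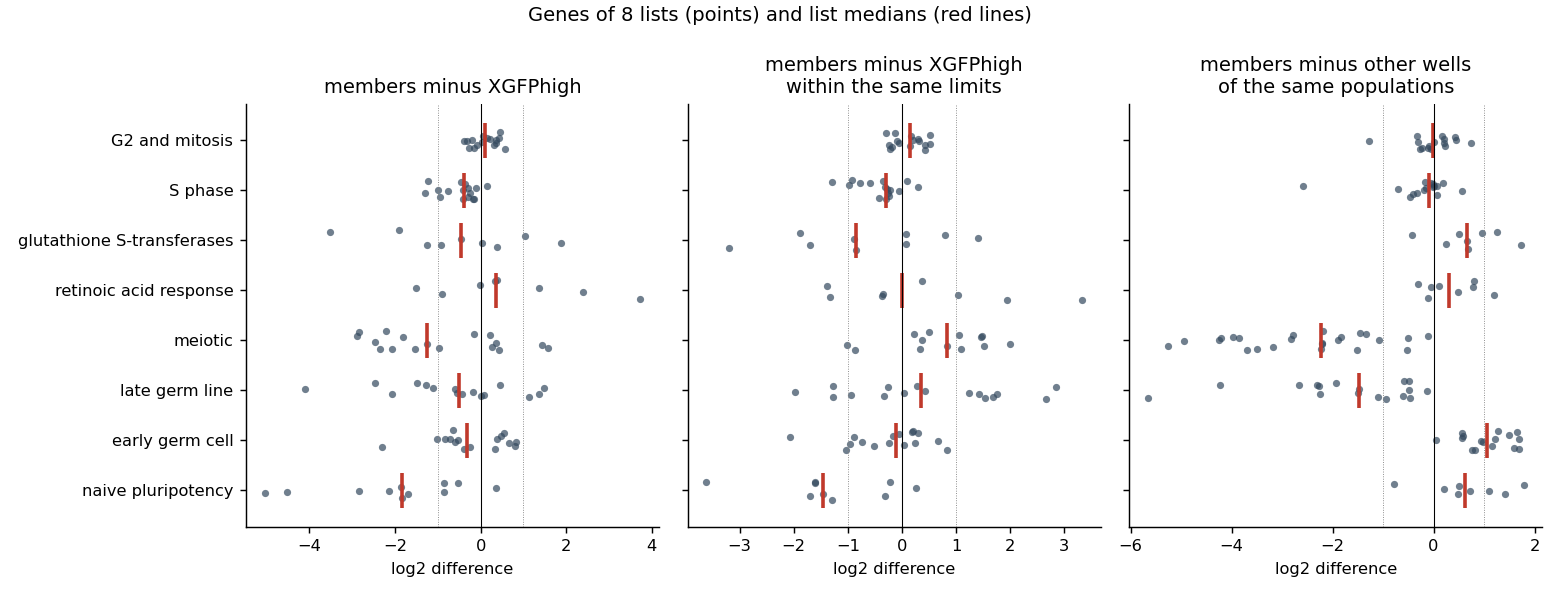
Log2 differences of single genes (points) of 8 gene lists and the list medians (red lines), for unadvanced wells against all XGFPhigh wells (left), XGFPhigh wells within the same limits (middle) and advanced wells (right); dotted lines mark 2-fold. Most naive pluripotency genes lie left of 0 in the first 2 panels (the panels have separate scales), and the median of the meiotic list is -1.24, 0.83 and -2.23 in the 3 panels.

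Within the unadvanced group the XGFPintermediate members were compared with the XGFPlow members. Of 6934 genes, 69 (0.995%) were 2-fold or more higher in the 33 XGFPintermediate and 1.70% in the 39 XGFPlow members. The list medians for meiotic, late germ-line, early germ cell and naive pluripotency genes lay between -0.14 and 0.15. Other lists were lower in the XGFPintermediate members, with medians of -0.58 for retinoic acid, -0.55 for BMP response, -0.46 for p53, -0.41 for S phase and -1.08 for dissociation response genes, beside -0.02 over all genes. *Cyp26a1* was read in 45.5% of the XGFPintermediate and 56.4% of the XGFPlow members, and *Gstm3* in 60.6% and 48.7%. *Stra6*, a receptor for retinol uptake, was at 14.3 and 42.1 rpm, a difference of -1.495 (-5.21 to -0.29). *Fos* differed by -3.05 and *Ier2* by -1.08, both of the dissociation response list, whose summed median was 185.6 rpm in XGFPintermediate and 358.2 in XGFPlow members. *Klf2* and *Ccne1* were also 2-fold lower in the XGFPintermediate members. Chosen after the values were seen, *Magi3* (33.7 against 9.61 rpm) and *Btbd3* (21.01 against 3.81) led the higher genes and *Plk2* (3.71 against 24.6) and *Zfp934* (12.7 against 41.5) stood among the lower ones, next to *Tmem88*.

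X-linked and autosomal genes were counted apart. Of the X-linked genes tested, 3 (0.977%) were 2-fold higher and 33.2% lower in unadvanced cells, with a median of -0.55. Of 6629 autosomal genes, 4.34% were higher and 300 (4.53%) lower, with a median of 0.11. Against advanced wells 63 X-linked genes (23.1%) and 7.19% of the autosomal genes were lower. Of the 10 leading lower genes against XGFPhigh, 6 lie on the X: *Gm364*, *Slc7a3*, *Ube2dnl*, *Magea10*, *Tktl1* and *Nr0b1*. The GFP gate that separates these populations is itself X-linked.

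*Xist* was read in 11 of 72 unadvanced wells, or 15.3% (7.88 to 25.7), with 79.99 rpm in the highest well. It was read in 13.3% of the advanced and 50.0% of the XGFPhigh wells, and in 69.05% of the wells with little *Dazl*. Its levels were 4.39, 6.22, 18.4 and 153.3 rpm in this order. Thinned to 50000 reads the shares were 8.33%, 8.15%, 33.1% and 59.5%. The unadvanced wells were thus low in *Xist* beside wells of their own gates with little *Dazl*.

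The expression limits did not use the X-linked allelic ratio, but the gate on GFP, carried by the mus X, is part of the rule. A ratio below that of XGFPhigh wells is thus not independent of how the wells were chosen. The ratio is the share of mus reads among allelic reads, so 0.5 means equal output of both X chromosomes and 0 means silence of the mus X. It was deposited for 58 of the 72 unadvanced wells. Of the 14 without it 13 were XGFPlow. The ratio of a well is the mean over its X-linked genes with a value, between 66 and 160 of them. It ran from 0.0788 to 0.477 with a median of 0.306 in unadvanced wells. The median was 0.341 in 129 advanced wells, 0.473 in XGFPhigh wells, 0.474 in the 63 of them within the limits, 0.479 in constitutive wells and 0.441 in ESCs. It was 0.0542 in the 20 wells with little *Dazl* that had one.

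Most unadvanced wells lay below most XGFPhigh wells in this ratio. The XGFPhigh range of 0.0396 to 0.681 nevertheless held the whole unadvanced range. It was at or above 0.4 in 1 of 58 unadvanced and in 89.8% of the XGFPhigh wells, and below 0.2 in 2 of 58 unadvanced wells and in 1 XGFPhigh well. Medians of the index sets were 0.291 to 0.324 in unadvanced and 0.468 to 0.480 in XGFPhigh wells, so the difference of -0.167 held in each set. The difference from advanced wells was -0.0346, with set medians of 0.328 to 0.353 in advanced wells. Each of these was above the highest unadvanced set median, while single wells of the groups overlapped widely. Against advanced wells of both gates together, the difference was -0.0161 for XGFPintermediate and -0.0580 for XGFPlow members alone. These 2 values mix the gates. Within a gate, medians were 0.324 in unadvanced and 0.352 in advanced XGFPintermediate wells, and 0.282 and 0.321 in XGFPlow wells. Within the group, XGFPintermediate members had a median of 0.324 (32 wells) and XGFPlow members of 0.282 (26 wells).

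**Figure D4:**
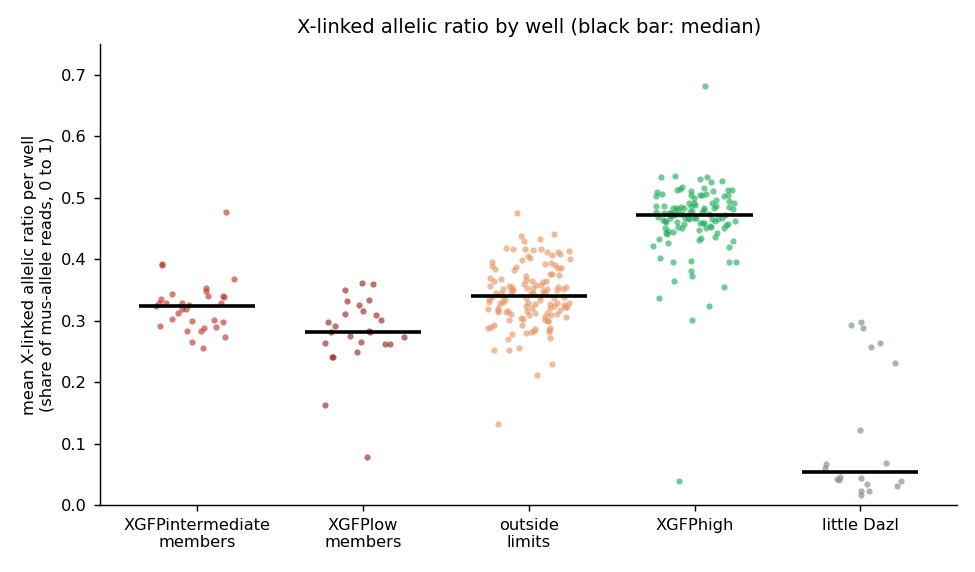
Mean X-linked allelic ratio per well (share of mus-allele reads, 0 to 1) in 32 XGFPintermediate and 26 XGFPlow unadvanced wells, 129 advanced wells (outside limits), XGFPhigh wells and 20 wells with little *Dazl*; points are wells and black bars medians. The unadvanced wells gather around 0.306, between the wells with little *Dazl* at 0.0542 and XGFPhigh at 0.473.

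Single genes varied more than the wells did. The X-linked genes with a value in at least 50% of the 58 wells were compared, and their mean ratios had a median of 0.354 in unadvanced, 0.407 in advanced and 0.481 in XGFPhigh wells. The unadvanced mean was the lower one for 110 genes (90.2%) against XGFPhigh and for 94 (77.05%) against advanced wells. At or below 0.1 were 13 genes in unadvanced, 6 in advanced and 0 in XGFPhigh wells, and above 0.4 were 49 genes (40.2%) in unadvanced and 88.5% in XGFPhigh wells. The mean over XGFPlow members was below that over XGFPintermediate members for 87 genes.

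The lowest were *Tex11*, a meiotic gene, *Trap1a*, *Wbp5*, *Bex1* and *Phf6*. *Tex11* (100838648 to 101059667 on the X) was at 0.00407 in 42 unadvanced wells, 0.0594 in advanced and 0.289 in XGFPhigh wells. *Wbp5* and *Bex1*, neighbours at 136.2 Mb, were at 0.0180 and 0.0185, against 0.394 and 0.422 in XGFPhigh wells. The highest were *1810030O07Rik*, *Nono*, *Trappc2*, *Uxt* and *Araf*. *Nono*, an RNA-binding protein, was at 0.659 in unadvanced and 0.674 in XGFPhigh wells, and *Araf*, a RAF kinase, at 0.532 and 0.508. Expression of the mus allele was therefore near that in XGFPhigh wells for some genes of the unadvanced cells and near 0 for others.

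The bulk libraries of day 5, which the rule did not use, show these genes in the PGCLCs before aggregation. Values are normalised counts, the groups were fitted with limma-trend over 16281 genes, and a call is a Benjamini-Hochberg adjusted p below 0.001. By the methods, the 4 libraries of a group come from 2 clones with 2 technical replicates each, and the labels do not say which come from the same clone. The fit takes the 4 as separate, so its p-values may be smaller than a test over clones would give, and they measure a spread that is in part technical. Between XGFP- and XGFP+ PGCLCs, 1833 genes (11.3%) were called higher and 2040 (12.5%) lower in XGFP-. This fit leaves out the replicate number, by which libraries of these 2 groups varied together. With that number as a block, 1992 genes were called higher and 2178 lower.

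The leading lower genes of the unadvanced cells were lower in XGFP- PGCLCs too. Of the 10 lower against XGFPhigh, 9 were tested and 9 were called lower, beside 12.5% of all genes. Of these, *Gm364*, *Slc7a3*, *Ube2dnl*, *Tktl1* and *Nr0b1* are X-linked, and *Serpina3m*, *Spic*, *Upp1* and *Bcat1* autosomal. The bulk groups were also sorted by GFP on the mus X, so the share over all genes is no like background for X-linked genes. *Nr0b1* had 206.2, 170, 276.04 and 423 normalised counts in XGFP- and 1624, 1885, 1433 and 1822 in XGFP+ PGCLCs, a change of -2.73 ± 0.35 (SE, adjusted p = 4.06e-06). *Bcat1* had 1565, 1504, 1824 and 1621 against 5605, 5665, 4928 and 4818, a change of -1.69 ± 0.07 (adjusted p = 5.17e-12). *Serpina3m* fell by 4.45 on the log2 scale, from a mean of 84.01 ± 35.9 (SD, n = 4) in XGFP+ to 3.14 ± 2.54 in XGFP- PGCLCs. The libraries did not overlap between these groups for any of the 3. *Magea10* was not tested.

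The leading higher genes did not share this. Of 9 tested, 2 were called higher and 1 lower, beside 11.3% and 12.5% of all genes. *Mfap2* had 18.3 ± 4.50 and 2.86 ± 2.06 normalised counts in XGFP- and XGFP+ PGCLCs, a change of 2.47 ± 0.38, and *Ifi27l1* changed by 1.95 ± 0.26. *Nfix* was called lower, at -1.93 ± 0.39. *Cyp26a1* had between 0 and 4.33 normalised counts in the 4 XGFP- libraries and between 1.91 and 7.51 in the XGFP+ ones, with no call (-0.69 ± 0.51, adjusted p = 0.283). *Arg1* was not tested.

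**Figure D5:**
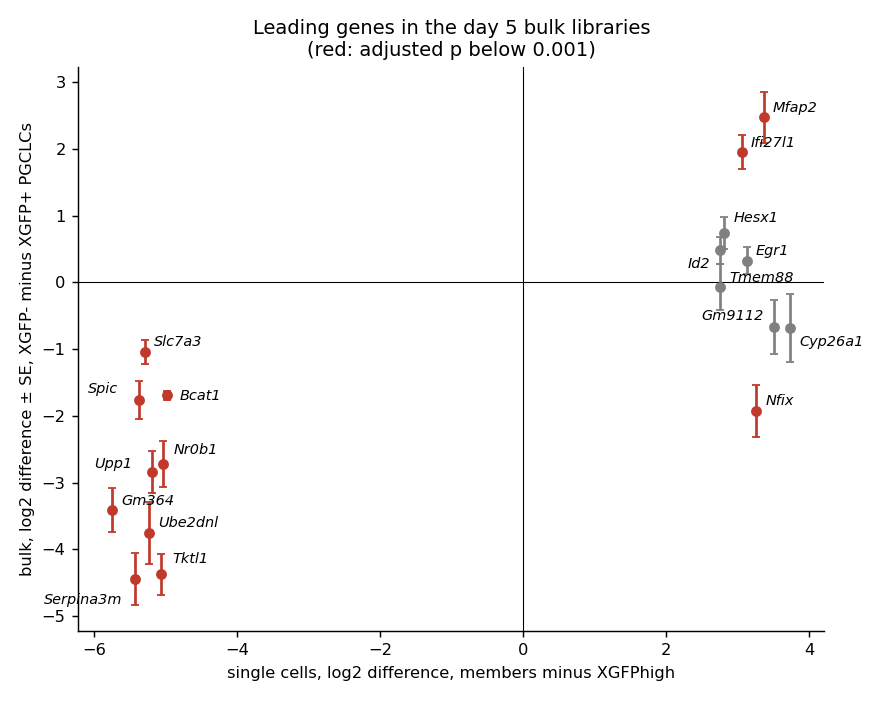
Leading genes of the comparison with XGFPhigh, by their single-cell log2 difference (horizontal axis, unadvanced minus XGFPhigh wells) and their log2 difference ± SE between XGFP- and XGFP+ PGCLCs in bulk (vertical axis, 4 libraries per group); red points have an adjusted p below 0.001. The 9 lower genes lie below 0 on both axes, while the 9 higher genes lie on both sides of 0 in bulk.

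Of the 5 label genes, *Wnt3* and *Alox15* were called higher and *Dppa3* lower in XGFP- PGCLCs, *Gstm3* was not called and *Dkk4* was not tested. *Wnt3* had 484, 512, 404 and 413 normalised counts in XGFP- and 134.2, 143.9, 184.7 and 199.7 in XGFP+ PGCLCs, a change of 1.46 ± 0.23 (adjusted p = 3.86e-05). *Alox15* changed by 2.57 ± 0.43 (adjusted p = 8.50e-05). *Gstm3* had 949 ± 196.5 and 874 ± 39.7, a change of 0.10 ± 0.25 with no call (adjusted p = 0.776), and 29.6 ± 9.85 in EpiLCs. It stood among the 4873 genes (29.9%) called higher in XGFP- PGCLCs than in EpiLCs, where 5200 (31.9%) were called lower. *Dppa3* changed by -0.91 ± 0.14.

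Lists gave a similar split, beside 11.3% of all genes called higher and 12.5% called lower. In XGFP- PGCLCs 0 of 15 naive pluripotency genes were called higher and 11 lower, and 1 of 19 late germ-line genes higher (*Tdrd5*) and 15 lower. *Dnmt3l* fell by 3.27 ± 0.19, with 224.7 to 326.7 normalised counts in XGFP- and 1935 to 3560 in XGFP+ libraries. *Rarb* was called higher, at 64.6 ± 8.63 against 12.2 ± 4.22, a change of 2.38 ± 0.33. It was the 1 of 8 retinoic acid genes called, a share near that over all genes. *Rec8* was higher by 0.77 ± 0.13. Of 17 WNT receptor and coreceptor genes 10 were called higher and 0 lower, among them *Fzd1* at 2.00 ± 0.27 and *Fzd8* at 1.42 ± 0.12, and of 10 WNT ligands *Wnt3* and *Wnt9b*. *Lef1* was higher by 1.71 ± 0.17, among the 4 of 14 WNT target genes called higher, beside 2 lower. In the unadvanced cells 4 of the 17 receptors reached 20 rpm, and none of those differed from XGFPhigh by 2-fold.

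*Xist* was measured at both stages in unlike libraries, bulk total RNA at day 5 and shallower single wells later, so its values share no scale. It had 5668 to 7850 normalised counts in XGFP- and 386 to 872 in XGFP+ PGCLCs, a change of 3.38 ± 0.18 (adjusted p = 1.74e-10), while 61 of the 72 unadvanced wells, which came from XGFP- PGCLCs, had no *Xist* read. Of the X-linked genes above, 63 have a ratio in bulk. The median over these genes was 0.141 in bulk XGFP- PGCLCs and 0.367 for the means over unadvanced wells, which are unlike measures. Of the 23 genes at or below 0.1 in XGFP- PGCLCs, where 0 can also stand for a gene without allelic reads, 7 were at or below 0.1 and 11 above 0.2 in unadvanced wells.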

How the data were processed

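Single cells were sorted 1 per well and sequenced with a full-length SMART-seq protocol without molecular identifiers, and bulk RNA with a stranded total RNA kit. The submitters' processing notes name STAR, HTSeq 0.6.1, DESeq, DESeq2 1.16, limma, Seurat and the build mm10. The authors aligned reads to the genome with strain variants masked and deposited raw gene counts per well. The allelic values are fractions deposited by the authors, the 129S1/SvImJ reads over the reads of both alleles per gene. The bulk values are a signal deposited by the authors, counts divided by 1 DESeq2 size factor per library.

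Everything else was computed from these files. The members and gene lists were chosen with earlier results of these data known. Wells were filtered by the limits of the report. No doublet caller was run. Levels are mean rpm, 2-fold differences use a pseudocount of 1 rpm and genes with a level of 20 rpm or more in either group, and shares were repeated after thinning to 50000 reads. Named genes are the 5 label genes, the 10 leading genes per side of each comparison with the same sign in every index set and both gates and a read in at least 25% of the wells of the higher group, the list members of highest level or past 2-fold, the rule genes, *Xist*, and the 5 highest and 5 lowest allelic ratios. Genes with close copies, such as *Serpina3m*, *Ube2dnl*, *Magea10*, *Dppa5a*, *Rpl10l* and the *Ifitm* and *Gstm* families, have uncertain counts. 4 columns of other samples were not used. Some members of the retinoic acid list are not reported here.

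Bulk values were tested with limma-trend (limma 3.58.1, R 4.3.3) on log2(normalised count + 1), fitted over all 16 libraries, 2-sided, on 16281 genes with a mean above 10, with Benjamini-Hochberg adjustment and a threshold of 0.001. Whole reads were recovered from 100% of the values (tolerance 0.02) of 14 libraries, and edgeR 4.0.16 (quasi-likelihood) and DESeq2 1.42.0 were run on these as alternatives, without EpiLC replicates 2 and 3. Recovered depth was 29.8 to 46.5 with 1000000 reads as the unit. The labels give the same replicate numbers to each group. Deviations from the group mean correlated within the same number at 0.253, 0.135, 0.20 and 0.307 between XGFP- and XGFP+ PGCLCs, so these pair the libraries. The main fit did not use this pairing, and a fit with the replicate number as a block was run as an alternative. The scripts were tested on simulated data. Python 3.11.15, pandas 2.3.3, numpy 2.4.6 and scipy 1.17.1 were used.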

Additional observations from a re-analysis of the deposited data

Results flagged for a closer look

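Among 102 groups of 4 bulk libraries (label genes and leading genes in EpiLCs and both PGCLC populations), 5 had a library far from the others by Dixon's gap test, and chance alone gives about 1 in 20. *Hesx1* was at 4.94 normalised counts in EpiLC replicate 2 and at 2.96 to 3.17 in the others. *Upp1* was at 623 in EpiLC replicate 1 and at 456 to 473 in the others. *Tex16* was at 12.999 in XGFP- PGCLC replicate 1, where the others lay between 1.92 and 2.06. *Gm4969*, the gene of MEIOSIN, was at 30.5 in XGFP+ replicate 4, with 21.3 in the nearest library, and at 25.1 in XGFP- replicate 1, with 10.2 in the nearest.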

How the results depend on the processing

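Counts of 2-fold genes (4.22% higher and 5.78% lower than in XGFPhigh, 2.04% and 7.8% against advanced wells) moved most with the limits on level and pseudocount. A pseudocount of 10 rpm gave 1.87% higher genes against XGFPhigh, and 1.06% and 4.66% against advanced wells. Genes with a level of 5 rpm or more gave 7.25% and 7.40% against XGFPhigh and 3.40% and 8.83% against advanced wells, and a level of 100 rpm or more gave 1.86% and 5.13%, and 1.52% and 5.93%. Halving the limits of the rule gave 1.31% higher genes against advanced wells and doubling them 3.56%. Without 1 index set at a time, the higher genes against advanced wells were 1.73% to 3.40%, the last without set 3-3, and all other values of these comparisons stayed within 1.5 times. The cause was not tested.

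The median X-linked ratio of unadvanced wells was 0.320 with the limits doubled, 0.324 in XGFPintermediate and 0.282 in XGFPlow members alone. Its difference from XGFPhigh was -0.153, -0.148 and -0.190 in this order, and that of the XGFPlow members from advanced wells was -0.0580. The difference from advanced wells, -0.0346 in the report, was -0.0170 with the limits halved, -0.0187 with them doubled and -0.0161 in XGFPintermediate members alone. Members of 1 gate alone were set against advanced wells of both gates. With the median over genes per well in place of the mean, the ratio was 0.236 and the differences -0.234 and -0.0540. Without 1 index set at a time the median was 0.302 to 0.312.

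Of 2965 single-gene values of the wells under other settings, 2872 moved by less than the spread between index sets, 83 moved by more and 10 changed direction. With the limits doubled, *Tex12* was 0.15 higher than in XGFPhigh, and *Fos* was at -0.74 against advanced wells for XGFPintermediate members alone. Against XGFPhigh wells within the same limits, chosen after seeing the data, *Gm4969* (1.29), *Tex101* (2.84), *Sycp1* (0.23), *Sycp3* (1.48), *Tex12* (1.46), *Ccdc36* (0.46), *Prdm9* (0.53) and *Ccne2* (0.30) were higher and not lower. Leaving out wells with more than 100 rpm of gonadal somatic markers, also chosen after seeing the data, kept the counts within 1.5 times.

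In bulk, leaving out 1 library at a time gave 1366 to 1704 higher and 1670 to 1935 lower genes between XGFP- and XGFP+ PGCLCs. 3 genes that were not called changed sign, *Tmem88* (-0.36 to 0.20), *Sox15* (-0.073 to 0.031) and *Gstm3* (-0.027 to 0.17). With the replicate block the counts were 1992 and 2178, and 4997 and 5331 against EpiLCs, where numbers did not pair (correlations of -0.0021 to 0.084). edgeR gave 1627 and 1913, and DESeq2 2419 and 2391. Of 1039 single-gene values, 28 lost and 8 gained a call. Depth limits the sparse label genes, whose shares fell after thinning.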

Other observations

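Other groups of genes also differed between XGFP- and XGFP+ PGCLCs in bulk (limma-trend, adjusted p below 0.001, where 11.3% of all genes were called higher and 12.5% lower). Of 26 meiotic genes, 2 were called higher (*Rec8* and *Spo11*, the nuclease that makes meiotic breaks) and 7 lower, among them *Sycp1*, *Sycp2* and *Sycp3*. Of 20 early germ cell genes, 4 were called higher (*Dnd1*, *Kit*, *Ifitm1* and *Ifitm3*) and 3 lower (*Dppa3*, *Cd38* and *Morc1*). Of 10 lipoxygenase and cyclooxygenase genes, 4 were called higher (*Alox15*, *Alox12e*, *Ptgs2* and *Pla2g4a*) and 1 lower (*Aloxe3*). Of 18 glutathione S-transferases 4 were higher and 3 lower, of 17 genes of glutathione supply and NRF2 2 and 5, and of 11 WNT inhibitors 4 and 2. Of 10 DNA methylation genes, 1 was higher (*Tdg*) and 4 lower, among them *Dnmt3l* and *Uhrf1*.

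Of the genes that led the comparison with advanced wells, 1 of 10 higher genes was called higher in XGFP- PGCLCs (*Slc38a4*) and 2 lower (*Gtsf1l* and *Actn2*). Of the lower genes 6 were tested, and 4 were called lower (*Gm364*, *Tktl1*, *Taf7l* and *Sycp2*).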
